A study of Mus musculus with 6 samples.

Results

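The ATP-binding cassette (ABC) transporters were examined in tumors of 2 intestinal sites. The array carried 63 probe sets for 34 genes whose symbol begins with Abc, a subfamily letter from a to g and a digit, among 22690 probe sets and 12393 named genes in all. Only probe sets that the platform annotation gives to a single gene were taken, and Abcc2 and Abcc3 were not analysed here. The rule used names and no measured value, but it was set with earlier results of these data known. The genes fell into subfamily A (7 genes), B (8), C (6), D (3), E (1), F (3) and G (6).

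Each of the 6 arrays held RNA from a tumor of a different mouse, 3 from the cecum and 3 from the duodenum. All 6 mice were Rb1 deficient, a lack of the retinoblastoma protein that restrains cell division, and carried Apc1638N, an Apc allele that predisposes to intestinal tumors, and no normal tissue or Rb1-intact tumor was among the samples. The duodenal samples could include tumor tissue from the pylorus, the outlet of the stomach. Age, strain and the way Rb1 was removed are not given in the labels used here. In each site tumors 1 and 3 came from male and tumor 2 from a female mouse, as read from Xist and Y-linked probe sets. Values are MAS5 intensities on a linear scale, with array medians of 164.6 to 181.8. Intensities of different probe sets are not on a common scale, so each gene was compared between tumors on the same probe set, and sums over a marker list, led by its brightest probe sets, only describe the tumors.

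ABC proteins bind and split ATP at paired cytoplasmic domains, and most members use it to move a substrate across a membrane. In the gut, Abcb1a and Abcg2 sit in the apical membrane of epithelial cells and return drugs, plant compounds and other xenobiotics to the lumen. Abcg5 and Abcg8 act as a pair and return sterols, Abca1 loads cholesterol onto apolipoprotein particles, and the D members serve peroxisomes and lysosomes. The E and F members have no membrane part and work on the ribosome.

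The start regions of Abcb1a and Abcg2 are shown because these are the genes that passed, that of Abcb1b as the other P-glycoprotein gene, and the stretch between Abcg5 and Abcg8 because this pair shares it. Abcb1a, Abcb1b and Abcb4 follow each other on mouse chromosome 5, and Abcg5 and Abcg8 lie head to head on chromosome 17. The sequences come from RefSeq on build GRCm38.p6, 250 bases before to 50 after an annotated start, 5′ to 3′, and 26 of the 34 genes had at least 1 such window. Capitals mark CCAAT boxes (CCAAT), GC boxes (GGGCGG), dioxin response cores (GCGTG), CDX sites (TTTATG) and GATA sites (AGATAA), searched on both strands.
Abcb1a, chr5:8566841-8567140 (+ strand): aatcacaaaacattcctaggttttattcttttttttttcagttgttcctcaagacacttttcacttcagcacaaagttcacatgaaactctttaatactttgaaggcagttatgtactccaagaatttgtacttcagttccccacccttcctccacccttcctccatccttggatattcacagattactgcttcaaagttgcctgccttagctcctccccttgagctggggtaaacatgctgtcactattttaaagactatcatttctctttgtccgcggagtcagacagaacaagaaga
Abcb1b, chr5:8797897-8798196 (+ strand): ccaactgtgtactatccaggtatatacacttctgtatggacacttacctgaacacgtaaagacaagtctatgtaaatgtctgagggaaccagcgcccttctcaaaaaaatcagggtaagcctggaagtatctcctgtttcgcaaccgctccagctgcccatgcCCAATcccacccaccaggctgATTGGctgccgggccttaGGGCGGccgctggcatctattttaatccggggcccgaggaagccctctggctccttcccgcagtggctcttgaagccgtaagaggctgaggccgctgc
Abcg2, window 1, chr6:58584283-58584582 (+ strand): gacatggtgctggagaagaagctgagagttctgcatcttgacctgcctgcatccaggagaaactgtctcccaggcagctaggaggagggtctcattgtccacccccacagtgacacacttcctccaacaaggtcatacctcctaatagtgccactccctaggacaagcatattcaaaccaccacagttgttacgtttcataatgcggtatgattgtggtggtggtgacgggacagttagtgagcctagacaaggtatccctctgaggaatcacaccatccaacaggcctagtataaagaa
Abcg2, window 2, chr6:58596422-58596721 (+ strand): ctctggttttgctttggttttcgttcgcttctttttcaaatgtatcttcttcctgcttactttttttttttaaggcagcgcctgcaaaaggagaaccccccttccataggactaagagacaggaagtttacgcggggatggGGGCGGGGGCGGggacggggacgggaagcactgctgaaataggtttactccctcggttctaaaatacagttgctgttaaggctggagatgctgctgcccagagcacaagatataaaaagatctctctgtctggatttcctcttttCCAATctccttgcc
Abcg2, window 3, chr6:58640296-58640595 (+ strand): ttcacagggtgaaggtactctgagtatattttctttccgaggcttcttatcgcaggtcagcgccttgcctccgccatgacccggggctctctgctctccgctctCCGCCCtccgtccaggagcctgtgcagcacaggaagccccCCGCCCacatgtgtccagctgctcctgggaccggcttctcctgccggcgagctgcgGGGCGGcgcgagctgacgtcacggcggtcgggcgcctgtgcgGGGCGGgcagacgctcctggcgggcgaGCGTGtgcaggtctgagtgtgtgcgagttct
Abcg5 and Abcg8, shared stretch read on the Abcg5 strand, chr17:84682962-84683170 (- strand): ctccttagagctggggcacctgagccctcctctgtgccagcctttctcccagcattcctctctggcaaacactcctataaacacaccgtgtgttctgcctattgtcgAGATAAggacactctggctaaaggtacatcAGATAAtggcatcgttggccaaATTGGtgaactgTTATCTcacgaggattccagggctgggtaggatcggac
The Abcb1a window held none of these motifs, whereas that of Abcb1b held 2 CCAAT boxes and 1 GC box. Abcg2 has 3 annotated starts, and the arrays do not tell which was used. Window 1 held no match, window 2 held 1 CCAAT box and 2 GC boxes, and window 3 held 4 GC boxes and 1 dioxin response core. Abcg8 has 2 annotated starts, and the nearer is separated by 109 bases from the only one of Abcg5. The 209 bases common to the windows of these starts held 3 GATA sites and 1 CCAAT box. Of all 32851 windows, 37.4% held a CCAAT box, 35.7% a GC box, 32.4% a dioxin response core, 11.9% a CDX site and 11.2% a GATA site. These matches are of letters only.

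A probe set was tested where its intensity was above the 40th percentile of its array (92.4 to 100.6) on at least 3 of the 6 arrays. This left 38 of the 63 probe sets and 21 of the 34 genes, each gene represented by its brightest tested probe set. Differences are cecal minus duodenal on log2(intensity + 16), compared with limma and adjusted over all 13866 tested probe sets. Abcb1a and Abcg2 were higher in cecal tumors and no gene was lower, so 2 of 21 tested genes (9.52%) passed. Over the whole array 850 of 8129 genes (10.5%) passed, 5.71% higher and 4.75% lower in cecal tumors, so the share among ABC transporters was near the background. The median log2 fold was -0.14 over the tested members and -0.05 over all tested genes. By probe set, 4 of 38 members (10.5%) passed, 3 higher and 1 lower, against 9.3% of all probe sets (5.24% higher and 4.07% lower).

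**Figure D1:**
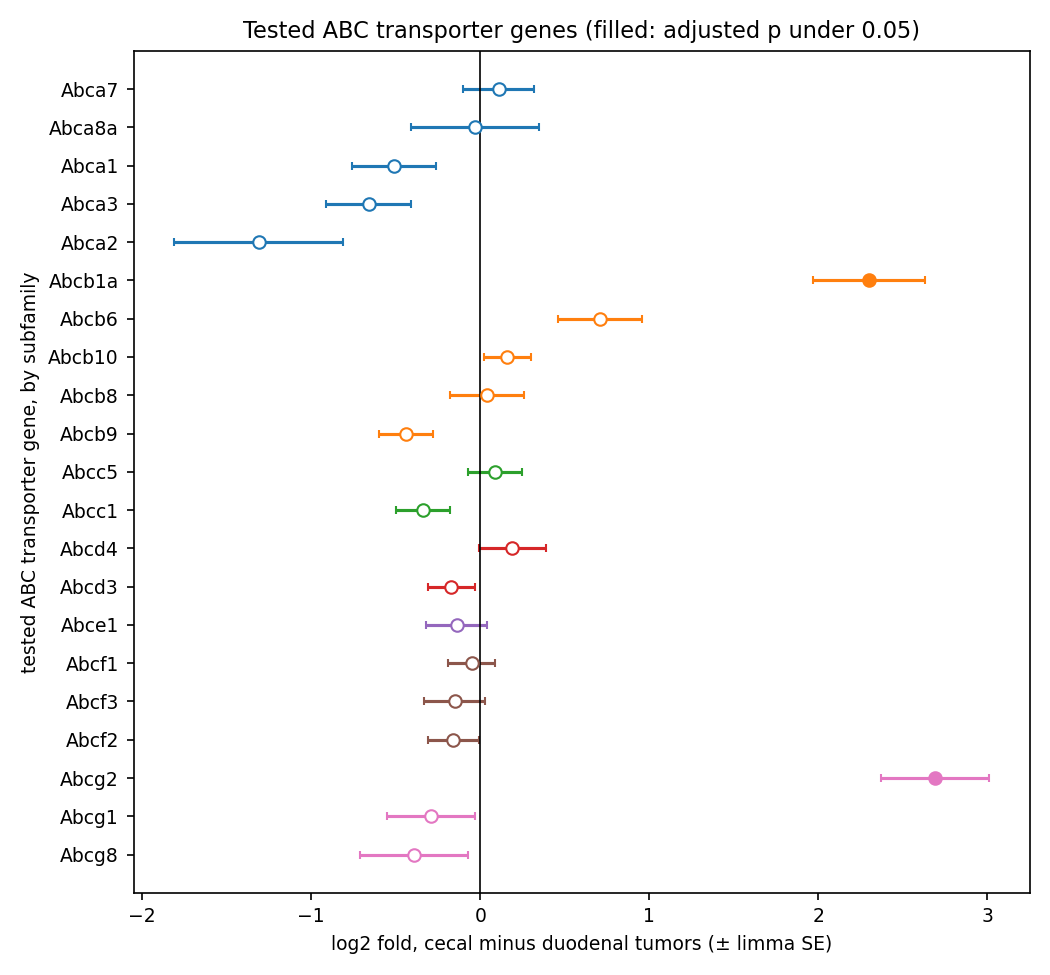
Log2 fold of each tested ABC transporter gene, cecal minus duodenal tumors, with the limma standard error (n = 3 tumors per site), colored by subfamily; filled points had an adjusted p under 0.05. Abcb1a at 2.30 and Abcg2 at 2.69 lie apart from the other 19 genes, which run from -1.31 to 0.71.

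Abcb1a encodes P-glycoprotein, an efflux pump of broad specificity and the main form in the mouse gut. Duodenal tumors 1, 2 and 3 read 379.1, 680.6 and 363.8 on its brighter probe set, and cecal tumors 1, 2 and 3 read 2225, 3573 and 1522. The sites did not overlap, and tumor 2 was the highest in each. The means were 474.5 ± 178.7 and 2440 ± 1042 (SD, n = 3 each), a log2 fold of 2.30 ± 0.33 (SE), or 4.91-fold (limma adjusted p = 0.00491). The lowest cecal tumor was 2.24 times the highest duodenal tumor, while tumors of the same site differed by up to 1.87 times in the duodenum and 2.35 times in the cecum. The second Abcb1a probe set, read from the same RNA, gave 285.8, 589 and 234.3 for the duodenum and 2101, 2845 and 1314 for the cecum. Its log2 fold was 2.49 ± 0.37 (SE; limma adjusted p = 0.00538), with tumor 2 again the highest of each site. With the 4 arrays of male mice alone the log2 folds of the 2 probe sets were 2.26 and 2.61 (limma adjusted p = 0.00224 and 0.00228).

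Abcg2 encodes the breast cancer resistance protein, the efflux pump of porphyrins, urate and many drugs. Its only probe set had 216, 133.2 and 160.4 in duodenal tumors and 1762, 1281 and 700.7 in cecal tumors 1, 2 and 3. The sites did not overlap, and the lowest cecal tumor was 3.24 times the highest duodenal tumor. The means were 169.9 ± 42.2 and 1248 ± 531.6 (SD, n = 3 each), which gave a log2 fold of 2.69 (95% interval 1.96 to 3.43), or 6.47-fold (limma adjusted p = 0.00187). Within the cecum the values spread 2.52-fold, with tumor 3 lowest for Abcg2 as for Abcb1a. The highest cecal tumor was tumor 1 for Abcg2 and tumor 2 for Abcb1a, so the order of the tumors differed between the pumps. With male arrays alone the Abcg2 log2 fold was 2.48 (limma adjusted p = 0.0181). Both genes passed under every alternative tried, with log2 folds of 1.98 to 2.63 for Abcb1a and 2.40 to 3.05 for Abcg2.

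**Figure D2:**
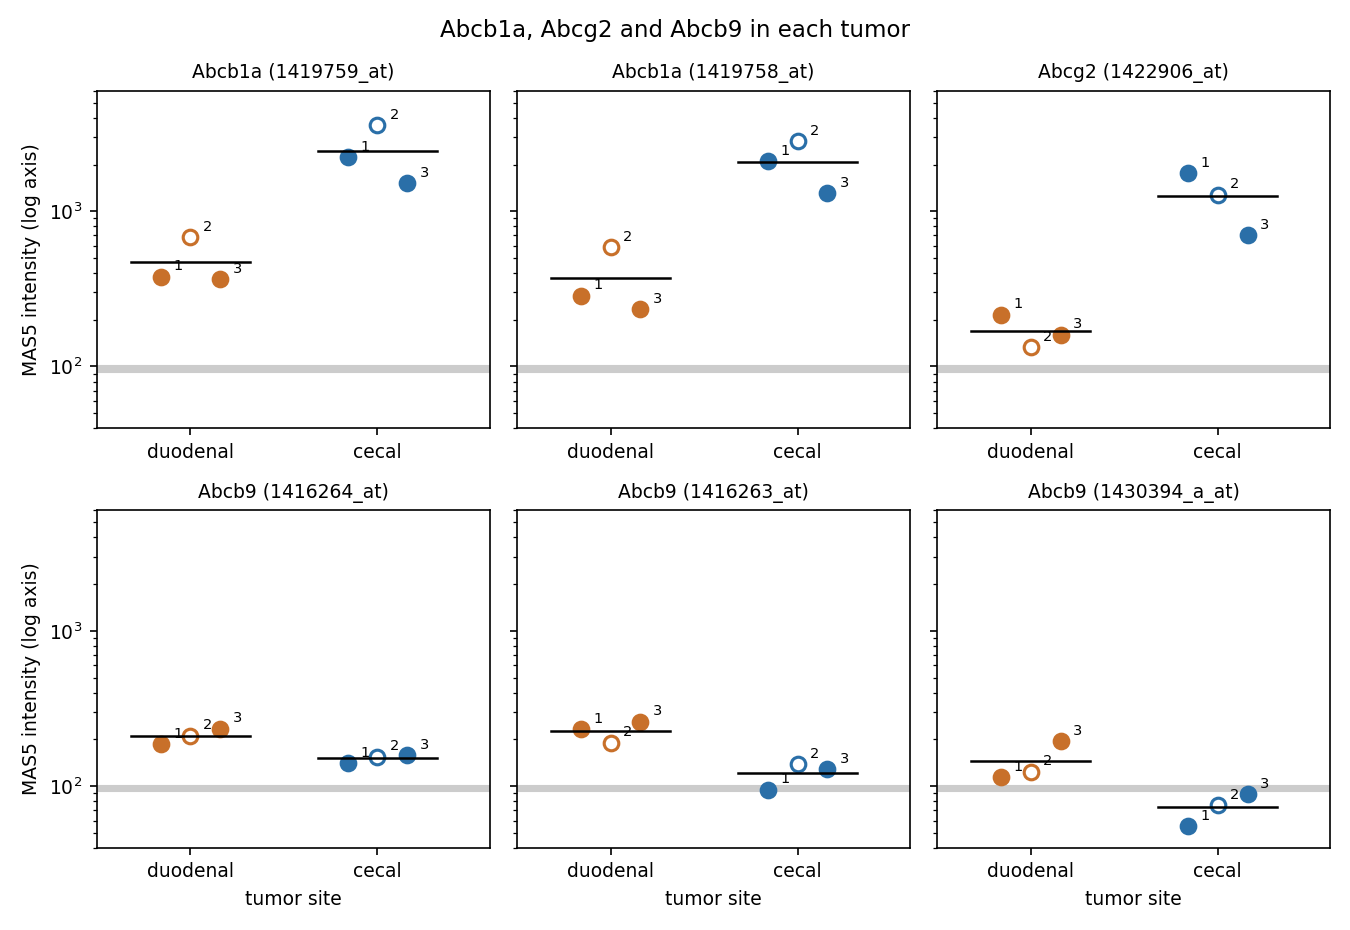
MAS5 intensity (log axis) of Abcb1a, Abcg2 and Abcb9 in each tumor by site, numbered by replicate, with open circles for female mice, bars for the mean and a grey band for the arrays' 40th percentiles. All 3 cecal tumors lie above all 3 duodenal tumors for Abcb1a and Abcg2, and below them for each Abcb9 probe set, by a smaller step.

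Marker lists of the epithelium and of other cell types were read beside these rises. All 10 genes of the large intestine epithelium list were higher in cecal tumors, with summed intensities of 42650 to 56658 against 923 to 2001, and all 11 stomach and pylorus genes were lower, with 1262 to 2118 against 67818 to 103020. Both lists were written with earlier results of these data known, so these counts only describe the tumors. Several of their genes, such as Car1 and Gkn1, were bright enough to test only through the site where they were high. Among general epithelial genes 2 of 8 were higher (Vil1 and Cldn7), and their sum ran from 57624 to 65278 in duodenal and 69930 to 73592 in cecal tumors. Their part in the changes of Abcb1a and Abcg2 was not tested. In such bulk samples a change in RNA per cell and one in the number of cells of a type cannot be told apart. Of the small intestine enterocyte list 1 of 5 tested genes was higher and 1 lower (summed intensities 2278 to 8646 in duodenal and 2581 to 7651 in cecal tumors), of Paneth, goblet and endocrine genes 3 of 9 were higher and 1 lower, and of pancreas and liver genes 1 of 3 was lower (5772 to 9343 against 2382 to 3936). Of 7 stromal genes 2 were higher (Col3a1 and Thy1), with sums of 11606 to 14825 in duodenal and 16222 to 20578 in cecal tumors. None of 7 tested leukocyte genes passed, although their list summed to 7235 to 7808 in duodenal and 8460 to 10493 in cecal tumors. The sums of the pancreas and liver, stromal and leukocyte lists thus did not overlap between the sites, and their part in the changes of Abcb1a and Abcg2 was not tested either. None of 6 endothelial or 8 smooth muscle genes passed, with sums that overlapped, and no red cell gene of 5 was bright enough to be tested.

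Abcb1b and Abcb4, which follow Abcb1a on chromosome 5, were dim in all tumors. Abcb1b, the second mouse P-glycoprotein gene, had 31 to 45.3 in duodenal and 31.5 to 47.3 in cecal tumors, below the 40th percentile on all 6 arrays. Abcb4, which moves phosphatidylcholine into bile, read 66.8, 59.6 and 60.3 in the duodenum and 91.7, 76.6 and 89.9 in the cecum, also below that level on all arrays. Its sites did not overlap, but at this brightness it was not tested. Abcb11, the bile salt export pump of the liver, stayed between 20.8 and 45.6. Of the 3 genes in the row, then, Abcb1a alone was measured above that level in these tumors.

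**Figure D3:**
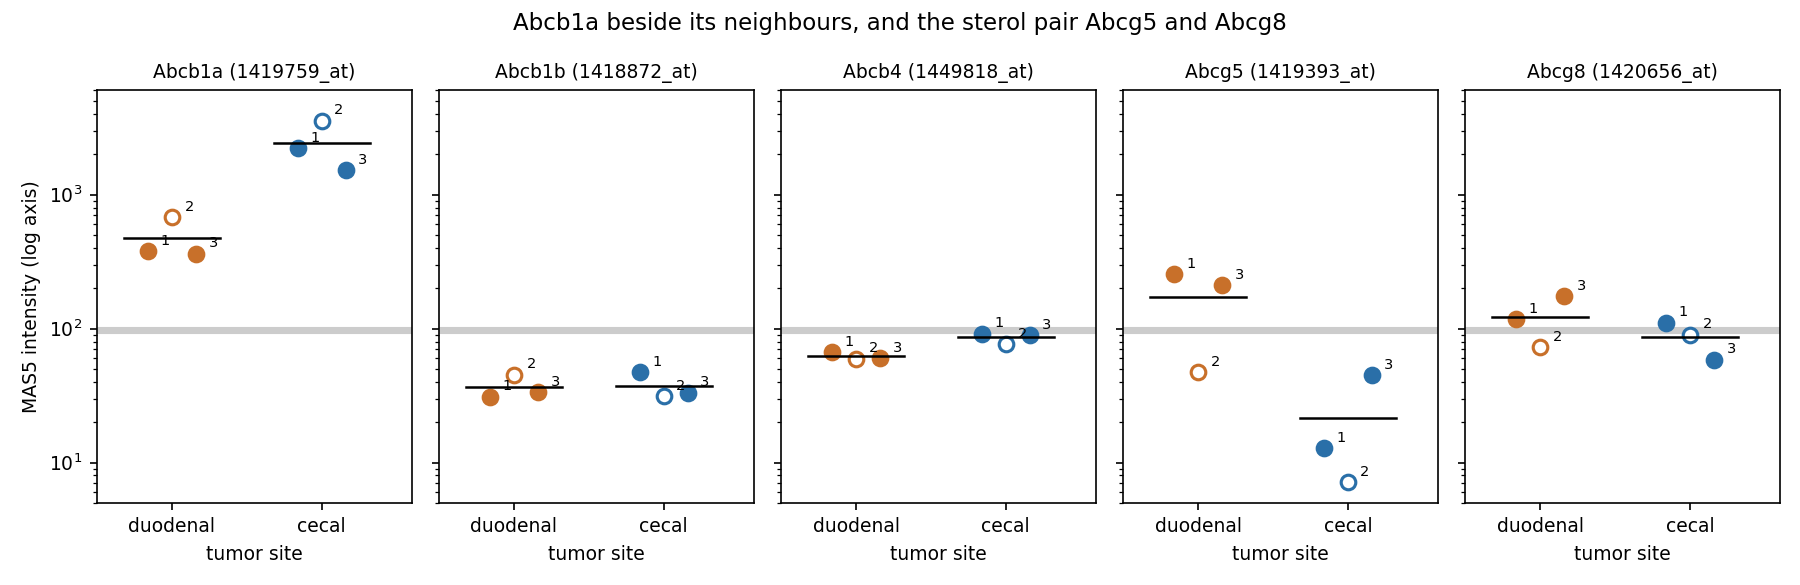
MAS5 intensity (log axis) of Abcb1a and its neighbours Abcb1b and Abcb4, and of Abcg5 and Abcg8, in each tumor by site, with symbols as in the plot of the efflux pumps. Abcb1b and Abcb4 lie under the grey band of 40th percentiles in all 6 tumors, and Abcg5 is above it in duodenal tumors 1 and 3 only.

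Abcb9, a lysosomal peptide transporter related to TAP, was the member with a probe set that passed in the other direction. On that probe set the duodenal tumors read 233.1, 190.6 and 259.9 and the cecal tumors 94.8, 138.1 and 128.5, with no overlap. Its log2 fold was -0.84 ± 0.20 (SE; limma adjusted p = 0.0332). The brightest Abcb9 probe set, at 185.8 to 234.3 against 140.1 to 157.6, had a log2 fold of -0.44 ± 0.16 (SE) and did not pass (adjusted p = 0.138). The dimmest probe set had 113.8 to 195.3 in duodenal tumors and was below the 40th percentile in every cecal tumor (55 to 88.4), and differed by -0.83 on the log2 scale (limma adjusted p = 0.0847, and 0.0418 when the replicate number was a block). All 3 Abcb9 probe sets had every cecal tumor below every duodenal tumor, although the gene as represented did not pass. They were read from the same RNA, and the dimmest was tested only through its duodenal values. Among all tested genes, 16.8% had every cecal tumor below every duodenal tumor. The probe set that passed no longer did so when a single array was dropped, with limma adjusted p-values of 0.104 for duodenal tumor 1, 0.11 for duodenal tumor 3, and 0.0974, 0.064 and 0.0574 for cecal tumors 1, 2 and 3, duodenal tumor 2 being the exception. It also failed among male arrays (0.0605) and when dim probe sets were kept (0.06), and it was not tested under a stricter filter at the 60th percentile.

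The mitochondrial members of subfamily B did not pass. Abcb6, a porphyrin-linked transporter, read 325.7, 207.9 and 440.7 in the duodenum against 539.4, 570.6 and 450.1 in the cecum. The sites were separated by the narrow step from 440.7 to 450.1, and the log2 fold of 0.71 ± 0.25 (SE) did not pass (limma adjusted p = 0.13). Abcb10, an inner membrane transporter needed for heme synthesis in red cell precursors, had a mean of 365.2 ± 23.4 in duodenal and 409.2 ± 37.9 in cecal tumors (SD, n = 3 each; limma adjusted p = 0.555). Abcb8 had 563.1 ± 72.3 and 595.1 ± 175.3 (adjusted p = 0.933), and its second probe set had the opposite sign (log2 fold -0.20, adjusted p = 0.66). None of 14 tested heme and iron-sulfur partners passed either, with a median log2 fold of -0.11. The closest were Isca1 (log2 fold -0.39, limma adjusted p = 0.156) and Slc48a1 (-0.33, adjusted p = 0.171).

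The lipid transporters of subfamily A had mostly negative folds, none of which passed. For Abca1 the duodenal tumors read 741.7, 904.1 and 1161 and the cecal tumors 499.1, 567 and 921.5. The sites overlapped through cecal tumor 3, and the log2 fold was -0.51 (95% interval -1.09 to 0.06; limma adjusted p = 0.267). Tumors of the same number differed by -0.56, -0.66 and -0.33 on the log2 scale, and Abca1 still missed the threshold when the replicate number was a block (limma adjusted p = 0.0578). Abca3, the lipid transporter of lung surfactant bodies, had 827.5, 441.5 and 715 against 487.6, 403.4 and 323.8, a log2 fold of -0.66 ± 0.25 (SE; limma adjusted p = 0.153). Duodenal tumor 2 lay within the cecal range. Without it the Abca3 log2 fold was -0.92 (limma adjusted p = 0.0306), and with array weights -0.83 (adjusted p = 0.0355). In the other 15 of 17 alternatives Abca3 did not pass, with a limma adjusted p of 0.377 without duodenal tumor 1. A second Abca3 probe set read 438.2, 232.6 and 324.7 against 219.6, 201.4 and 195.7, with no overlap and a log2 fold of -0.61 (adjusted p = 0.137). The limma adjusted p of that set was 0.0349 when duodenal tumor 2 was dropped and 0.0333 under array weights.

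Abca2, a lipid transporter of lysosomes best known from the brain, had the lowest log2 fold of all tested members, -1.31 ± 0.50 (SE; limma adjusted p = 0.157). Its duodenal tumors had 157.8, 124.2 and 109.7, and its cecal tumors 11.4, 114.2 and 40, so cecal tumor 2 lay within the duodenal range. Without that tumor the log2 fold was -1.89 (limma adjusted p = 0.0307), the only alternative in which Abca2 passed. Abca7, a phospholipid transporter of phagocytes, had 200.9 to 296.1 in duodenal and 207.7 to 315.4 in cecal tumors. Abca8a had 42.1 to 116.5 and 56.8 to 121.7, and Abca8b and the retinal Abca4 were below the 40th percentile on all arrays. Among lipid and surfactant partners, 1 of 5 tested genes passed, where 10.5% of all tested genes did. It was Pltp, which transfers phospholipids between lipoproteins. It rose from 406.6 ± 44.3 to 716.6 ± 138 (SD, n = 3 each; limma adjusted p = 0.0287), but it missed the threshold when duodenal tumor 1 (0.0886), duodenal tumor 2 (0.0709), cecal tumor 1 (0.102) or cecal tumor 3 (0.0763) was dropped.

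Apart from Abcg2, subfamily G gave no gene past the threshold. Abcg5 read 256.4, 47.6 and 211.9 in the duodenum and 12.8, 7.1 and 45 in the cecum, and the sites did not overlap, by the step from 47.6 to 45. It was above the 40th percentile in duodenal tumors 1 and 3 only and so was not tested. With no filter on dim probe sets it did not pass (limma adjusted p = 0.0823). Duodenal tumor 2, from the female mouse, was also low in 2 other genes of lipid absorption. Fabp1 had 4236, 683.8 and 4630 and Mttp 861.1, 214.3 and 662.7 in duodenal tumors 1, 2 and 3. This was not particular to lipid absorption, as Gast of the stomach list had 2805, 134.6 and 1320 and Chgb of the endocrine list 3336, 519.2 and 6898. Other genes were not low in that tumor, such as Alb with 54.9, 2168 and 210.5. Abcg8, the partner of Abcg5, read 118, 72.9 and 175 against 110.9, 90.1 and 58.7, which overlapped (log2 fold -0.39, limma adjusted p = 0.525). Abcg1, which passes cholesterol to lipoproteins, had 295.9 ± 62.5 and 243.8 ± 77 (SD, n = 3 each; limma adjusted p = 0.556). The rodent gene Abcg3 and the brain gene Abcg4 were not bright enough to be tested.

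Among 10 tested sterol handling partners, 1 was higher and 1 lower in cecal tumors, with a median log2 fold of -0.02. Over all tested genes 5.71% were higher and 4.75% lower. Nr1h4, the bile acid receptor FXR, read 154.6, 76.9 and 125.9 against 819.3, 598.6 and 472.5 (log2 fold 2.27, limma adjusted p = 0.00192). Mttp, which loads lipid onto lipoproteins, was below the 40th percentile in all cecal tumors and at least 5.16-fold higher in duodenal tumors (limma adjusted p = 0.00456). It was bright enough to test only through its duodenal values. Cyp27a1, a sterol hydroxylase, had 537.8 to 790.2 in duodenal and 195.3 to 459.1 in cecal tumors without overlap. The difference of -1.09 on the log2 scale missed the threshold (limma adjusted p = 0.0515). Cyp27a1 passed in 4 of 17 alternatives, among them the replicate number as a block (limma adjusted p = 0.00665), array weights (0.0377) and an offset of 64 (0.0479). Among male arrays its limma adjusted p was 0.205. Of 7 bile acid handling genes on the array 1 was tested, Slc51a, a subunit of the basolateral bile acid exporter, with a log2 fold of 1.68 (limma adjusted p = 0.0482). Its cecal values were 529.9, 571.7 and 186.4 against 150.5, 65.8 and 129.6, and it missed the threshold when any array but cecal tumor 3 was dropped (adjusted p = 0.0684 to 0.17). Slc51a also missed it when dim probe sets were kept (limma adjusted p = 0.0783), without the intensity trend (0.0575) and among male arrays (0.254).

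Regulators of the efflux pumps were read beside them. Of 11 tested xenobiotic sensors and partners 2 rose and none fell, with a median log2 fold of 0.12. Over the whole array 5.71% of tested genes were higher and 4.75% lower in cecal tumors. The partner lists were written with earlier results of these data known, so this count only describes the tumors. Nr1i2, the xenobiotic receptor PXR known to induce Abcb1a, read 127.1, 106.7 and 148.6 against 217.1, 216.8 and 222.3. Its log2 fold of 0.72 ± 0.17 (SE) passed (limma adjusted p = 0.0328) but not when any array other than duodenal tumor 3 was dropped (0.0755 to 0.109). Nr1i2 also missed the threshold when dim probe sets were kept (limma adjusted p = 0.0618) and among male arrays (0.197). Hnf4a, a nuclear receptor of the gut epithelium, rose from 3422 ± 246.3 to 4846 ± 385.9 (SD, n = 3 each; limma adjusted p = 0.0266), and dropping whichever array ended this (0.0535 to 0.0974). Hnf4a also missed the threshold without the intensity trend (limma adjusted p = 0.0573) and among male arrays (0.12). Nfe2l2, the oxidative stress factor Nrf2, differed by -0.46 on the log2 scale (limma adjusted p = 0.0718). Rxra, the partner of PXR, had a log2 fold of 0.48 (limma adjusted p = 0.0695).

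Subfamily C holds exporters of conjugated compounds and the sulfonylurea receptors. Abcc1, the multidrug resistance protein that exports glutathione conjugates, read 761.4, 821.3 and 769.4 against 492.2, 674.5 and 706.8. The sites did not overlap, yet the log2 fold of -0.34 (95% interval -0.70 to 0.03) did not pass (limma adjusted p = 0.255), and its second probe set overlapped (log2 fold -0.07). Abcc5, an exporter of cyclic nucleotides, had 7 probe sets, 5 of them tested, with log2 folds from -0.45 to 0.09 and none past the threshold. Its represented values were 272.2 to 337.3 in duodenal and 276.2 to 356.1 in cecal tumors (adjusted p = 0.797). Abcc6, mainly a liver transporter, had 3.4, 2.2 and 4.5 against 25.4, 49.5 and 14.4, all below the 40th percentile. Abcc8 and Abcc9, the regulatory subunits of ATP-sensitive potassium channels, and Abcc10 were not tested, and their channel partner Kcnj8 had a log2 fold of 0.03 (adjusted p = 0.95).

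No peroxisomal, lysosomal or ribosomal member of subfamilies D to F passed. Abcd3, a main membrane protein of peroxisomes, read 4282, 3767 and 5008 in the duodenum and 4263, 3947 and 3346 in the cecum, a log2 fold of -0.17 (95% interval -0.50 to 0.15; limma adjusted p = 0.528). Abcd4, which serves lysosomal release of vitamin B12, had 111.2, 113.7 and 117.1 against 104.4, 137 and 162.7 (log2 fold 0.19, adjusted p = 0.614). Abcd2 stayed at or below 20.6. Of 15 peroxisome partners 1 rose and 1 fell, where 5.71% of all tested genes were higher and 4.75% lower in cecal tumors. Slc27a2, a fatty acid transporter and acyl-CoA synthetase, was dim in all duodenal tumors and at least 2.06-fold higher in cecal tumors (limma adjusted p = 0.00121). It was bright enough to test only through its cecal values. Hsd17b4, an enzyme of peroxisomal beta-oxidation, had a log2 fold of -0.71 (limma adjusted p = 0.0102), which missed the threshold when cecal tumor 2 was dropped (0.0505) and among male arrays (0.0965).

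Abce1, which splits ribosomes after translation ends, read 1165, 1620 and 1325 against 1050, 1183 and 1496, a log2 fold of -0.14 (95% interval -0.55 to 0.26; limma adjusted p = 0.692). The F members act in translation and its control. Abcf1 had 1147 ± 178.3 and 1102 ± 64.4 (SD, n = 3 each; log2 fold -0.05, 95% interval -0.37 to 0.28, limma adjusted p = 0.881). Its 4 tested probe sets ran from -0.50 to -0.04 on the log2 scale. Abcf2 had 358.9 ± 44.7 and 317.7 ± 23.6 (adjusted p = 0.57), and Abcf3 321.4 ± 55.2 and 288.3 ± 47.8 (adjusted p = 0.684). The represented probe sets of Abce1 and Abcf1 carry a suffix for probes that can match transcripts of more than 1 gene. So do those of Cftr, Hnf4a, Pltp, Slc51a and Hsd17b4 among the partners, and the source of all these signals is less certain. Of 8 translation partners 1 rose, where 5.71% of all tested genes were higher in cecal tumors. It was Eif2s2, a subunit of initiation factor eIF2, which rose from 4110 ± 384.4 to 7108 ± 583.1 (SD, n = 3 each; limma adjusted p = 0.00468).

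Some ABC proteins carry other symbols and were read beside the members. Cftr, the chloride channel of subfamily C, read 2257, 1077 and 1670 against 603.2, 569.6 and 833.2 without overlap, a log2 fold of -1.26 ± 0.27 (SE; limma adjusted p = 0.0232). It missed the threshold when duodenal tumor 1 (0.0606), duodenal tumor 3 (0.0748), cecal tumor 1 (0.0945) or cecal tumor 2 (0.089) was dropped. Tap1 and Tap2, the subfamily B peptide transporters of antigen presentation, had log2 folds of -0.13 and -0.08 (limma adjusted p = 0.855 and 0.809). None of 8 peptide loading partners passed.

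Among the 21 tested members 8 had a positive and 13 a negative fold. In 5 the sites did not overlap (23.8%), 3 with cecal tumors above and 2 below, where 31.2% of all tested genes did not overlap. Of the 19 genes that did not pass, 4 had an unadjusted limma p under 0.05, namely Abca2, Abca3, Abcb6 and Abcb9. The 13 untested genes reached at most 256.4, the value of Abcg5 in duodenal tumor 1.

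**Figure D4:**
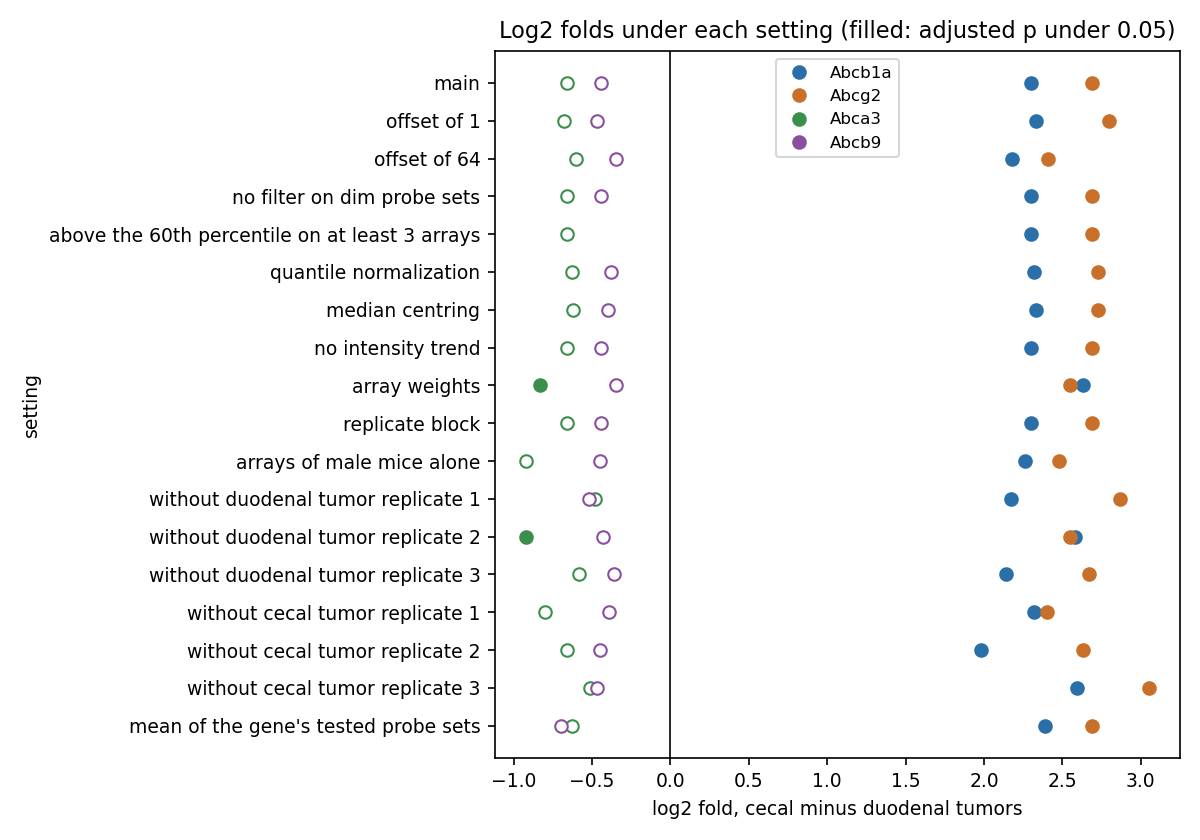
Log2 fold (cecal minus duodenal tumors) of Abcb1a, Abcg2, Abca3 and Abcb9 under the main setting and each alternative; filled points had an adjusted p under 0.05. Abcb1a and Abcg2 stay filled at 1.98 or above in each setting, Abca3 is filled in 2 settings and the brightest Abcb9 probe set, absent under the stricter filter, in none.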

How the data were processed

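RNA of 6 tumors, 1 per mouse, was hybridised to Affymetrix arrays. The deposited values are linear probe set intensities made with MAS5, per the submitters' processing notes, and the authors had scaled the arrays to a common level (trimmed means of 499.1 to 499.9). The software version and present or absent calls are not given in the labels, and precision is limited by having 3 arrays a site. Groups and replicate numbers come from the titles. Gene names come from the platform annotation, in which 20380 probe sets name 1 gene, 691 several and 1555 none, and 64 controls were left out. Log2(intensity + 16) values were fitted with limma 3.58.1 in R 4.3.3 (intensity trend, two-sided, Benjamini-Hochberg, threshold 0.05). The 95% intervals are limma's, not adjusted for the number of genes. For a probe set dim in all 3 tumors of a site, a lower bound sets the bright site's mean log2 intensity against the dim site's 40th percentile levels. Promoter letters were searched with Python 3.11.15, and figures drawn with matplotlib 3.10.9.

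The members, lists, motifs and tests were chosen with earlier results of these data known. Genes named with values were those that passed, the 2 brightest tested of each subfamily, genes measured at a single site and a set with known gut roles, and up to 4 partners per list. Others (Vil1, Cldn7, Col3a1, Thy1, Fabp1, Gast, Chgb, Alb, Car1, Gkn1, Abca2, Abcb6, Abcb10, Abca7, Abca8a, Abcc6, Abcd2, Abcf3) were named after their values were seen. For numbers 1, 2 and 3 the deviations from the site means had correlations of 0.274, 0.299 and 0.203 across sites. The labels state no pairing and give 6 separate mice, so the replicate block was an alternative only. With 3 tumors a site and sex matched to the number, these correlations cannot show pairing. The number 2 tumors are also the female ones. On simulated data for the 13866 tested probe sets, 55% of those changed 2-fold and 92% of those changed 4-fold were called.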

Additional observations from a re-analysis of the deposited data

How the results depend on the processing

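Abcb1a and Abcg2 passed under all 17 alternatives run for single genes, and at a threshold of 0.01. With the replicate number as a block, 2 ABC transporter genes were higher and none lower, as without it. Apart from Cyp27a1 and the dimmest Abcb9 probe set, whose values with the block are given above, the block changed no call among the ABC transporters or named partners. The count of ABC transporter genes lower in cecal tumors was 0 and became 1 with array weights (Abca3). Leaving out 1 tumor gave 0 to 1, with Abca3 passing without duodenal tumor 2 and Abca2 without cecal tumor 2. At an unadjusted limma p under 0.05, 3 genes had a negative fold. The count of probe sets past the threshold ran from 3 to 6 over these settings. Over the whole array the 850 genes became 1237 with array weights, 1036 with the replicate number as a block, 491 with male arrays alone and 345 at a threshold of 0.01. Leaving out 1 tumor gave 447 to 798 genes, with 447 without cecal tumor 1, 478 without cecal tumor 2 and 554 without duodenal tumor 1. Dim probe sets and 3 tumors a site limit what could be tested, and 13 of the 34 genes have no test.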
